A study of Mus musculus with 19 samples.

Results

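The integrated stress response is the route by which a cell under amino acid shortage, misfolded protein, heme loss or double-stranded RNA slows translation and turns on a set of repair genes. Kinases that sense these stresses phosphorylate the translation factor eIF2, most translation falls, and the mRNA of the transcription factor ATF4 is translated better. ATF4 then raises genes for amino acid supply, and, when the stress lasts, genes that reopen translation or favour cell death. In lung it is known from alveolar epithelial cells under endoplasmic reticulum stress. Here 9 genes of this response were followed in mouse lung: Atf4 itself, the transcription factors Atf3 and Ddit3, the feedback genes Ppp1r15a and Trib3, the biosynthetic enzymes Asns and Psat1, the glutathione-degrading enzyme Chac1 and the mTORC1 inhibitor Ddit4. The genes were chosen by name as known ATF4 response genes, and each array probe was assigned to them through its transcript accession. All 9 were found among the 16535 gene symbols of the array, through 10 probes, and in lung all 10 gave a signal well above background on all 19 arrays. The 9 genes were therefore all among the 19315 genes tested, of which 12323 had a symbol and the others stand for probes left unnamed here.

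The lungs came from male mice of the transgenic strain 40.6 (MutaMouse), 25 weeks old, which had been dosed by mouth every day for 28 days with benzo(a)pyrene, a combustion product whose metabolites bind DNA, and were sampled 3 days after the last dose. The groups were 5 controls that had received the vehicle and 3 dosed groups, named here by their daily dose in mg/kg: BaP25 (n = 5), BaP50 (n = 4) and BaP75 (n = 5). All groups carried the same transgenic background, and each array held RNA from part of the lung of 1 mouse. That RNA was labelled with Cy5 and set against a universal mouse reference, total RNA of 11 cell lines, labelled with Cy3. A level below is the log2 ratio of lung over reference, so a gene at -1 was at a lower level in lung than in the cell lines. A difference is the level at a dose minus the control level on the same log2 scale, and a gene was called where limma's p, adjusted over all genes tested, was below 0.05.

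The lung channel had 19777 to 27279 spots well above background per array. Markers of lung cells were high in every mouse: the mean log2 ratio was 4.45 to 5.19 over 8 genes of alveolar type 2 cells and 4.29 to 4.75 over 6 endothelial genes. The arrays lay on 6 slides, and 4 of the arrays (controls 1 and 3, mouse 12 of BaP50 and mouse 20 of BaP75) had quality metrics out of the scanner software's range. A control shared its slide with a BaP25 mouse on 4 slides, with a BaP50 mouse on 3 and with a BaP75 mouse on 4.

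Over the 3 doses of BaP, 2 of the 9 genes were called, and they went opposite ways. Ppp1r15a, which encodes the phosphatase subunit GADD34 that removes phosphate from eIF2, rose in BaP75. Trib3, a pseudokinase gene that ATF4 induces and that feeds back on it, fell in BaP50 and BaP75, although with median centring of the arrays in place of loess its sign turned in BaP75. Atf4, Ddit4 and the enzymes Asns, Psat1 and Chac1 passed the threshold at no dose. Atf3 and Ddit3 also missed it, but in BaP75 they stood at 0.43 (95% interval 0.14 to 0.71) and 0.28 (0.06 to 0.50). They were called there in 4 and 2 of 36 alternative analyses. In BaP25 0 of the 9 genes were called (0.0518% of all genes tested were called), in BaP50 1 of 9 was called, a fall (1.08% of all genes were called, and 0.337% were called lower). In BaP75 2 of 9 were called (4.15% of all genes), 1 higher (2.64% of all genes) and 1 lower (1.51% of all genes). At an unadjusted p under 0.05, limma gave 0 of 9 in BaP25, 1 higher and 1 lower in BaP50, and 3 higher and 1 lower in BaP75. The shares above are for the adjusted p and are no background for these counts. Many genes pass the unadjusted threshold in BaP75: 1904 of the 19315 genes tested had a limma p as low as that of Ddit3 (0.016). The median difference of the 9 genes was 0.13, -0.01 and 0.20 at the 3 doses, beside 0.01, 0.00 and -0.01 over all genes. Lung RNA is a mixture, so fewer cells of a type and less RNA per cell cannot be told apart in any of these differences.

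**Figure D1:**
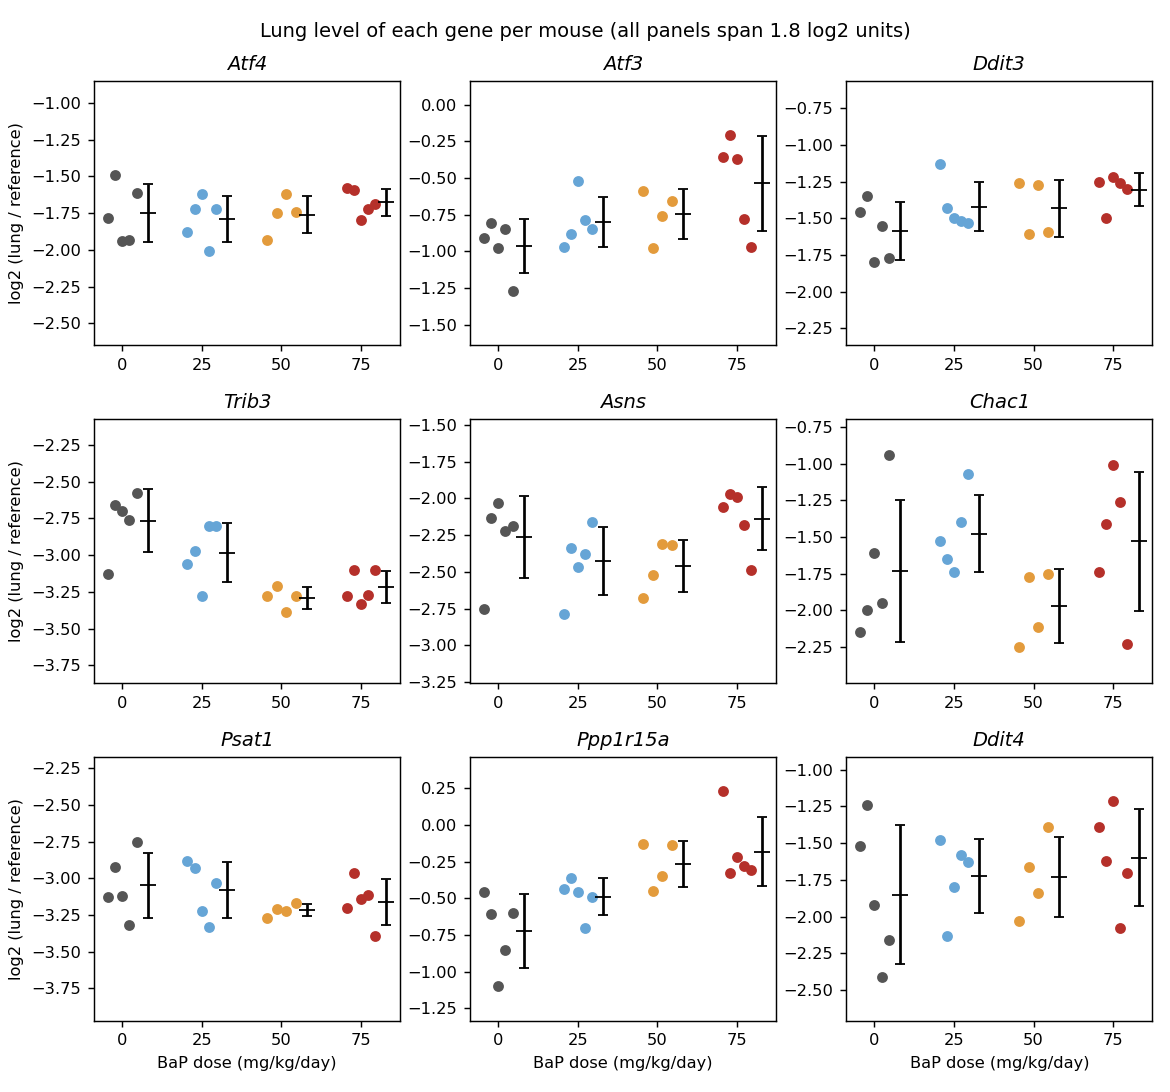
The log2 ratio of lung over reference (vertical axis) of each of the 9 genes in each mouse, by dose in mg/kg/day (horizontal axis). Points are mice, and the bar beside them is the group mean with its SD (n = 5, 5, 4 and 5). The Ppp1r15a points in BaP50 and BaP75 lie above all control points, from -0.45 upward, and the Trib3 points in BaP50 lie below all control points.

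Where ATF4 acts, it binds with C/EBP proteins to a composite element whose core reads TGATGNAA, and CREB and ATF proteins bind the palindrome TGACGTCA. Both were searched on both strands in the RefSeq promoter windows of assembly GRCm38.p6, 250 bases before to 50 bases after each gene's start, and a match of one cannot be a match of the other. The core TGATGNAA was found in 4 of the 9 genes and in 3.97% of the 32851 mouse windows, and TGACGTCA in 1 of the 9 and in 1.79% of the windows. The 9 genes, with 10 windows, were counted by gene and the background by window, so the shares differ in unit. The 9 were also chosen as known ATF4 response genes. The stretches around these matches are shown because they include both called genes, Trib3 and Ppp1r15a, beside Atf3, Chac1 and Asns, which hold the ATF4 core and passed the threshold at no dose. The capitals mark the match, and each line reads in the direction of transcription. The Atf3 stretch is chr1:191183410-191183469 on the minus strand, with its match 110 bases before the start. That of Chac1 is chr2:119351023-119351082 on the plus strand, 193 bases before the start. The Asns stretch is chr6:7693210-7693269 on the minus strand, 23 bases before the start, and that of Trib3 is chr2:152344028-152344057 on the minus strand, 15 bases after the start. The Ppp1r15a stretch, with TGACGTCA 12 bases before the start, is chr7:45526269-45526328 on the minus strand.
Atf3: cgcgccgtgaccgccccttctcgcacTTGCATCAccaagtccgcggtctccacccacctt
Chac1: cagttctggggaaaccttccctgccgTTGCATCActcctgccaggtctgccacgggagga
Asns: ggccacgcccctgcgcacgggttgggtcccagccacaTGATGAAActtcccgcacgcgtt
Trib3: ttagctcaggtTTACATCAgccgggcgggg
Ppp1r15a: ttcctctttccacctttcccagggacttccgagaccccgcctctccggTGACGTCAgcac
In Atf3, Chac1 and Trib3 the core lies on the opposite strand and is seen here as its reverse complement. A match describes letters in this window only.

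Atf4 (chr15:80255184-80257545, GRCm38.p6) encodes the response's central transcription factor, which is controlled mainly through translation of its mRNA, a step these arrays do not measure. Its level was -1.78, -1.49, -1.94, -1.93 and -1.61 in controls 1 to 5. It was -1.88, -1.72, -1.62, -2.01 and -1.72 in BaP25, -1.93, -1.75, -1.62 and -1.74 in BaP50, and -1.58, -1.59, -1.80, -1.72 and -1.69 in BaP75. The groups overlapped at every dose, and the highest level belonged to control 2. The differences were -0.04 ± 0.10 (SE), -0.01 ± 0.10 and 0.08 ± 0.10 at the 3 doses, with adjusted p = 0.97, 0.98 and 0.75. The 95% interval in BaP75 ran from -0.13 to 0.28 after loess, but with median centring of the arrays the difference itself was 0.70 (adjusted p = 0.090), where the median of all genes stood at 0.35.

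Atf3 and Ddit3 are transcription factor genes downstream of ATF4. Atf3 (chr1:191170296-191183333) is also induced by other stresses and represses as well as activates, and its level was -0.91, -0.81, -0.98, -0.85 and -1.27 in the controls. In BaP75 it was -0.36, -0.21, -0.37, -0.78 and -0.97 in mice 16 to 20. Mice 16 to 19 lay above every control, mouse 19 only just, and mouse 20 lay among the controls, so the groups overlapped. The difference was 0.43 ± 0.13 (SE), a 1.34-fold level (95% interval 1.1 to 1.63, n = 5 against 5), with a limma adjusted p of 0.084, so Atf3 missed the threshold. Without mouse 20, whose array had metrics out of range, it was 0.53 with adjusted p = 0.018, and without all 4 such arrays it was 0.54 with adjusted p = 0.049. In BaP25 and BaP50 the Atf3 difference was 0.16 ± 0.13 and 0.21 ± 0.14.

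Ddit3 (chr10:127290793-127296291) encodes CHOP, the factor linked to cell death under lasting endoplasmic reticulum stress. Its level was -1.46, -1.35, -1.80, -1.55 and -1.77 in the controls and -1.25, -1.50, -1.22, -1.26 and -1.30 in BaP75. Of the latter, 4 mice lay above every control and mouse 17 lay among them. The difference was 0.28 ± 0.11, 1.22-fold (1.04 to 1.42), with a limma adjusted p of 0.16. It was 0.17 ± 0.11 in BaP25, with all 5 mice above the control mean, and 0.16 ± 0.11 in BaP50, with 2 of 4 above it. On the 4 slides shared by a control and a BaP75 mouse, Ddit3 was higher in the treated mouse on 4 of 4, by 0.09 to 0.32. With slide as a random block, Ddit3 (0.27, adjusted p = 0.047) and Atf3 (0.37, adjusted p = 0.048) both passed in BaP75. That brings the called genes to 4 of 9, in a setting where 1850 of the 19315 genes tested were called, against 801 without a block. With slide as a fixed block neither gene passed (Ddit3 0.25, adjusted p = 0.056, and Atf3 0.32, adjusted p = 0.097).

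Ppp1r15a (chr7:45522917-45526268) supplies the inducible subunit of the eIF2 phosphatase and so ends the translational block. Its level was -0.46, -0.61, -1.10, -0.85 and -0.60 in controls 1 to 5, and -0.44, -0.36, -0.46, -0.70 and -0.49 in BaP25. It was -0.13, -0.45, -0.35 and -0.14 in BaP50, and 0.23, -0.33, -0.22, -0.28 and -0.31 in BaP75. Every mouse in BaP50 and BaP75 lay above every control, while the mice in BaP25 overlapped the controls. The group means were -0.72 ± 0.25 (SD), -0.49 ± 0.13, -0.27 ± 0.16 and -0.18 ± 0.23 with rising dose. The gene rose in BaP75, 1.46-fold (95% interval 1.22 to 1.74), with a difference of 0.54 ± 0.12 (SE) and adjusted p = 0.015. In BaP50 it was 1.37-fold (1.14 to 1.66) with a difference of 0.46 ± 0.13 and adjusted p = 0.10, short of the threshold, and in BaP25 the difference was 0.24 ± 0.12 (adjusted p = 0.68). Fitted against dose over all 19 arrays, Ppp1r15a rose by 0.18 ± 0.04 for every 25 mg/kg/day (adjusted p = 0.0054). Over the dosed groups alone the trend was 0.15 ± 0.05 (limma adjusted p = 0.38), which missed the threshold.

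Mouse 16, at 0.23, stood apart from the other mice in BaP75, and without it the Ppp1r15a difference was 0.44 with adjusted p = 0.047. In all 19 runs that left out 1 mouse the call in BaP75 held, with differences of 0.44 to 0.61. A run that left out a mouse of another dosed group could change only the p, since the difference itself stays the same. The smaller fit on the control and BaP75 arrays alone gave the same difference with adjusted p = 0.074, which misses the threshold, and 0 of the 9 genes were called there. On shared slides Ppp1r15a was higher in the treated mouse than in the control on 4 of 4 slides in BaP25, 3 of 3 in BaP50 and 4 of 4 in BaP75, where the slide differences were 0.15 to 0.77. With slide as a fixed block the difference in BaP75 was 0.50 (adjusted p = 0.011).

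**Figure D2:**
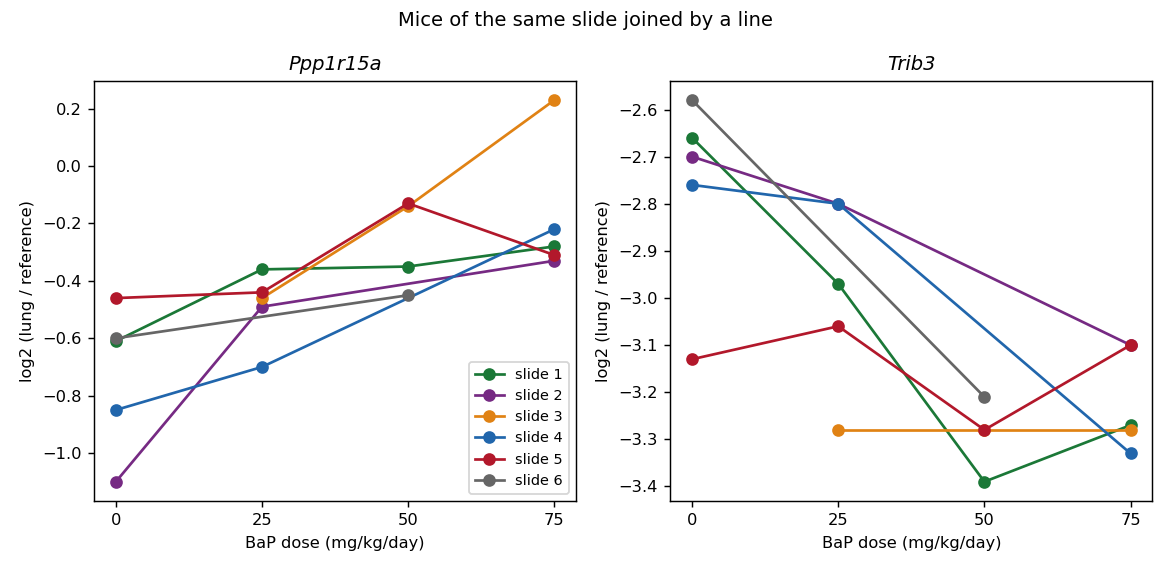
The log2 ratio of lung over reference (vertical axis) of Ppp1r15a and Trib3 by BaP dose (horizontal axis, mg/kg/day), with mice of the same slide joined by a line. Slide 3 held no control; in BaP75 Ppp1r15a lay above the control of its slide on 4 of 4 slides and Trib3 lay below it on 3 of 4.

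Trib3 (chr2:152337425-152344060) encodes a pseudokinase that is induced by ATF4 with CHOP and that restrains both ATF4 and Akt. Its level was -3.13, -2.66, -2.70, -2.76 and -2.58 in controls 1 to 5, and -3.06, -2.97, -3.28, -2.80 and -2.80 in BaP25. It was -3.28, -3.21, -3.39 and -3.28 in BaP50 and -3.28, -3.10, -3.33, -3.27 and -3.10 in BaP75. The mice in BaP50 all lay below every control. Those in BaP75 lay below controls 2 to 5 but overlapped control 1, whose array had metrics out of range. Trib3 fell by 0.53 ± 0.11 (SE) in BaP50, to 0.695 of the control level (95% interval 0.592 to 0.816, n = 4 against 5, adjusted p = 0.025). It fell by 0.45 ± 0.10 in BaP75, to 0.731 of the control level (0.628 to 0.851, n = 5 against 5, adjusted p = 0.017), although with median centring in place of loess the difference turned to 0.16 at this dose, where the median of all genes stood at 0.35. In BaP25 the difference was -0.22 ± 0.10 (adjusted p = 0.64), and against dose Trib3 fell by 0.16 ± 0.04 for every 25 mg/kg/day (adjusted p = 0.0083). The fall was not steady, as BaP75 lay no lower than BaP50. Over the dosed groups alone the trend was -0.12 ± 0.05 (limma adjusted p = 0.57), which missed the threshold.

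A second Trib3 probe, taken up after the values were seen, gave differences of -0.26 ± 0.11, -0.40 ± 0.11 and -0.37 ± 0.11 at the 3 doses. Its adjusted p was 0.098 in BaP50, which missed the threshold, and 0.04999 in BaP75, at the edge of it. Its levels were -2.05, -1.90, -2.13, -2.44 and -2.15 in the controls and -2.75, -2.20, -2.63, -2.50 and -2.46 in BaP75, where 4 of 5 mice lay below every control. The fall of Trib3 in BaP50 was called in 12 of the 19 runs that left out 1 mouse (differences of -0.62 to -0.48), and missed the threshold without control 2, 3, 4 or 5 or without mouse 12, 14 or 15. In BaP75 it was called in 17 of 19 (-0.54 to -0.40), and missed without mouse 16 (adjusted p = 0.051) or mouse 18 (0.056). On shared slides Trib3 was lower in the treated mouse on 3 of 4 slides in BaP25, 3 of 3 in BaP50 and 3 of 4 in BaP75, and on the remaining slide it was 0.03 higher in BaP75 than control 1.

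Asns and Psat1 carry out steps of amino acid synthesis that ATF4 raises when supply falls. Asns (chr6:7675165-7693209), the asparagine synthetase gene, ranged from -2.75 to -2.03 in controls, from -2.79 to -2.16 in BaP25, from -2.68 to -2.31 in BaP50 and from -2.49 to -1.97 in BaP75. The ranges overlapped throughout, and the differences were -0.17 ± 0.14, -0.19 ± 0.15 and 0.13 ± 0.14. Psat1 (chr19:15905123-15925059), which makes phosphoserine on the way to serine, ranged from -3.32 to -2.75 in controls and from -3.39 to -2.96 in BaP75. Its differences were -0.03 ± 0.11, -0.17 ± 0.11 and -0.11 ± 0.11, with adjusted p = 0.98, 0.57 and 0.65. In BaP75 the 95% intervals reached up to 0.42 for Asns and 0.11 for Psat1 after loess. These limits depend on the scaling: with median centring the differences were 0.88 for Asns and 0.50 for Psat1, and with the processed signals Psat1 stood at 0.16, none of them past the threshold.

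Chac1 and Ddit4 varied most between mice of a group. Chac1 (chr2:119351242-119354326), which breaks down glutathione, ranged from -2.15 to -0.94 in controls and from -2.23 to -1.01 in BaP75, with SDs of 0.48 and 0.47. Its differences, 0.25 ± 0.23, -0.24 ± 0.24 and 0.20 ± 0.23, changed sign between doses and none passed the threshold. Ddit4 (chr10:59949675-59951770), which encodes REDD1 and is also a target of p53 and of glucocorticoids, ranged from -2.41 to -1.24 in controls and from -2.08 to -1.21 in BaP75. Its differences were 0.13 ± 0.20, 0.12 ± 0.21 and 0.25 ± 0.20. Ddit4 also varied in the reference channel, which held the same RNA on every array: the standard error of its difference there was 0.28 in BaP75, against 0.05 to 0.08 for the other 8 genes.

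**Figure D3:**
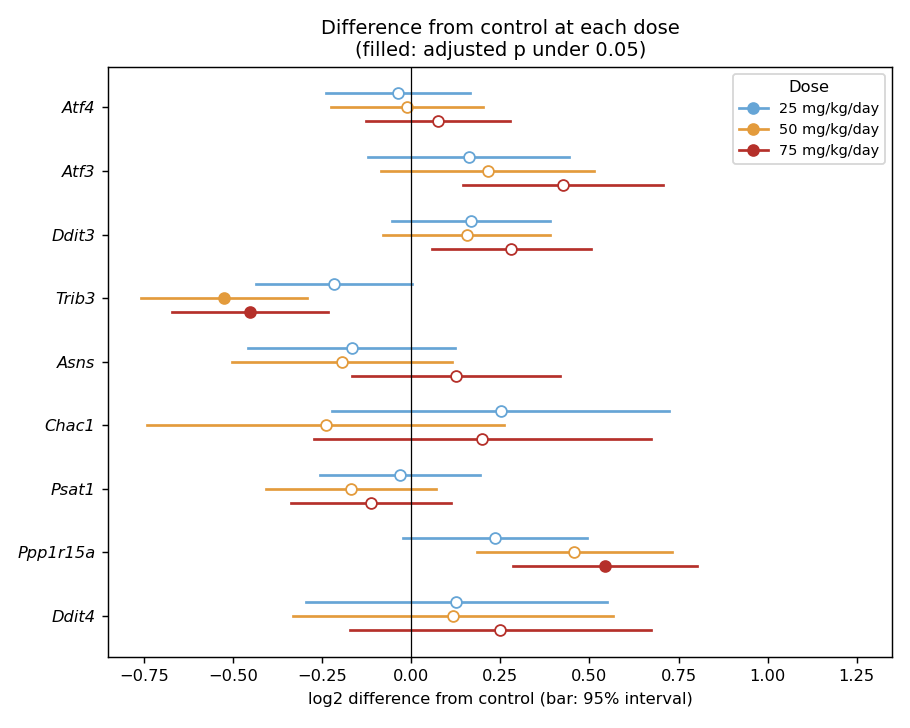
The log2 difference from control (horizontal axis) of each gene in BaP25, BaP50 and BaP75, with its 95% interval. Filled points passed an adjusted p of 0.05: Trib3 in BaP50 (-0.53) and BaP75 (-0.45, but 0.16 with median centring) and Ppp1r15a in BaP75 (0.54).

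Between the treated groups, 0 of the 9 genes were called in any of the 3 comparisons of doses, in which 0.0104% (50 against 25), 0% (75 against 50) and 0.549% (75 against 25) of all genes were called by limma. At an unadjusted limma p under 0.05, Asns was higher in BaP75 than in BaP50, by 0.32 ± 0.15, and Trib3 differed by -0.31 ± 0.11 from BaP25 to BaP50. Among the 19315 genes tested, 814 had a p as low as that of Asns (0.043) and 190 as low as that of Trib3 (0.012). Such counts are near what chance alone would give. From BaP25 to BaP75, Ppp1r15a was 0.31 ± 0.12 higher, Asns 0.29 ± 0.14 higher and Trib3 differed by -0.24 ± 0.10, again at an unadjusted p under 0.05. There 736, 1303 and 1022 of all genes had a p as low as that of Ppp1r15a, Asns and Trib3. In the trend over all doses, 2 of the 9 genes were called, Ppp1r15a and Trib3, where 4.64% of all genes were called, 2.82% higher and 1.83% lower.

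From mouse to mouse, the levels of the 9 genes ran together in some pairs and apart in others. Over the 19 mice, the Pearson r of the 36 pairs ran from -0.74 to 0.62 with a median of 0.15, and 24 pairs were above 0. The pair with the strongest relation was Trib3 and Ppp1r15a, with r = -0.74 (permutation p = 8e-05, 0.0029 after Benjamini-Hochberg adjustment over the 36 pairs) and Spearman's rho = -0.78 (p = 0.00016, adjusted 0.0058). It was the single pair past the threshold. Without the 2 mice farthest from the median r was -0.78. The permutations shuffled all mice across groups and slides, so the p also carries the dose differences of the 2 genes. Both genes differ with dose, and once the group means were subtracted r was -0.38, and -0.06 once slide was subtracted too. No p was computed within groups. Ddit3 and Ppp1r15a had r = 0.62 (p = 0.0046, adjusted 0.083), 0.405 within groups, and 0.435 once slide was subtracted too. Asns and Chac1 had r = 0.51 (p = 0.028, adjusted 0.14), 0.55 within groups, and 0.31 once slide was subtracted too. Atf4 and Trib3, a factor and its target, had r = -0.12 (p = 0.62, adjusted 0.83).

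**Figure D4:**
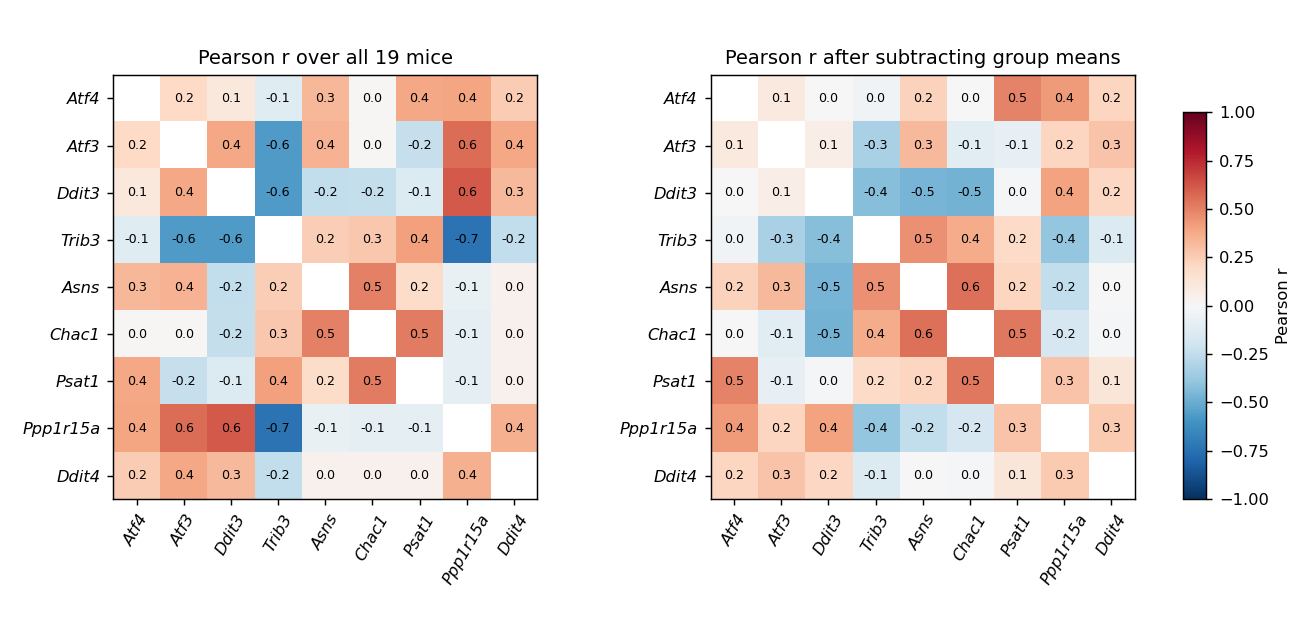
Pearson's r of the log2 ratio for each pair of the 9 genes, over all 19 mice (left) and after the group means were subtracted (right), on a colour scale from -1 to 1. The lowest value on the left is Trib3 with Ppp1r15a (-0.74), which is -0.38 on the right.

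The genes whose levels ran most like each member over the 19 mice were other genes than its fellow members. For Ppp1r15a these were Ctla2a (r = 0.91, and 0.78 within groups), Sox4 (0.90 and 0.77) and Eya2 (0.89 and 0.73). Those for Trib3 were Rps26 (0.88 and 0.59), Ccdc82 (0.86 and 0.60) and Arid5b (0.85 and 0.72). Atf4 ran most like Sae1, Bbx and Nop16 (0.82 to 0.88), Atf3 like Pigf, Trappc13 and Ctps (0.82 to 0.85), and Ddit3 like Rps19, Mbd3 and Mrps35 (0.84 to 0.86). Asns had the closest neighbours, Srm, Rps19bp1 and Tmem11 (0.89 to 0.92), and Ddit4 the most distant, Gpaa1, Nprl3 and 1810055G02Rik (0.66 to 0.71). Chac1 ran most like Rgs3, Nfic and Ppm1a (0.81 to 0.86) and Psat1 like Aif1l, Pcyt1a and Zfp512 (0.73 to 0.78). These r values were picked as the highest among all genes, are shared by slide as well as by dose, and are given as a description.

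The other genes of the pathway were read in BaP75 beside the shares over all genes, 2.64% called higher and 1.51% called lower. At such shares a count of 0 in lists of 10 to 19 genes is near the background. Of 14 genes, those for the eIF2 kinases, eIF2 itself and its exchange factor plus Ppp1r15b, Dnajc3 and Nck1, 0 were called in BaP75. Their median difference was 0.02. Perk (Eif2ak3) stood at 0.04 ± 0.12 and Gcn2 (Eif2ak4) at -0.01 ± 0.07. The constitutive phosphatase subunit Ppp1r15b, the counterpart of the inducible subunit Ppp1r15a, stood at -0.11 ± 0.09. Of 10 amino acid transporters 0 were called (median -0.19), with the large neutral transporter Slc7a5 at -0.31 ± 0.13. Of 19 genes for cytosolic tRNA synthetases, 0 were called (median -0.08). In serine and one-carbon metabolism 1 of 13 was called: Phgdh, the entry enzyme of serine synthesis, fell by 0.70 ± 0.19 (adjusted p = 0.042), a call lost with median centring, the lung channel alone, the authors' deposited table or no filter on dim probes. In the 19 runs that left out 1 mouse, 0 to 2 genes of this list fell, with 0 without control 2 or 3 or without mouse 6, 7, 8, 13, 14, 15, 16, 18 or 19. With slide as a fixed block 4 genes of this list, 2 amino acid transporters and 1 tRNA synthetase gene were called lower. In that setting 780 of all genes tested were called lower, against 291 without a block. The median of these 13 genes was -0.26, and Aldh1l2, at -0.71 ± 0.22 (adjusted p = 0.083), missed the threshold.

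Among 13 partners and regulators of ATF4, 1 was called in BaP75: Trib2, a relative of Trib3, rose by 1.04 ± 0.10 (adjusted p = 1.8e-06), while Trib1 was at 0.15 ± 0.16. Atf5, itself an ATF4 target, was at -0.51 ± 0.14 (adjusted p = 0.055) and Cebpb at -0.36 ± 0.14. With slide as a fixed block 2 genes of this list were called lower, where 780 of all genes tested were called lower and 987 higher. Among 22 other targets 4 rose: Gdf15, a secreted stress cytokine, by 3.16 ± 0.20 (adjusted p = 1.96e-08), Sesn2, which restrains mTORC1, by 1.40 ± 0.16, and the death genes Pmaip1 (Noxa) and Bbc3 (Puma) by 0.81 ± 0.18 and 0.64 ± 0.17. Over all genes 2.64% were called higher. The count of 4 became 3 in the authors' deposited table and without the filter on dim probes, 5 with slide as a fixed block, where 2 others were called lower, and 2 without mouse 18. These 4 genes are also on the list of p53 targets. The median over all 22 targets was -0.01.

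Taking the ATF4 lists as a whole, 75 genes were tested, and 5 rose and 1 fell in BaP75, with a median of -0.09. Of the 5 that were also on the p53 list 4 rose, with a median of 0.81. Of the 70 that were not, 1 rose (Trib2) and 1 fell (Phgdh), with a median of -0.12, beside 4.15% called and a median of -0.01 over all genes. In BaP50 1 of these 70 rose, where 0.746% of all genes were called higher, and 0 fell, and in BaP25 0 were called by limma. By comparison, of the 21 p53 targets on no ATF4 list 12 rose and 1 fell in BaP75, with a median of 0.85, among them Cdkn1a, which encodes the cell cycle inhibitor p21, by 3.28 ± 0.225. Of 20 targets of the unfolded protein factors ATF6 and XBP1, 0 were called at any of the 3 doses (median -0.02 in BaP75), with Hspa5 (BiP) at 0.28 ± 0.15. Of 11 mitochondrial stress genes 0 were called (median -0.03). With median centring, 2 of the ATF6 and XBP1 targets and 1 of the eIF2 genes were called higher in BaP75, and 1 of the eIF2 genes also with slide as a fixed block. Of all genes tested, 526 and 987 were called higher in these settings, against 510 in neither. The lists were written with earlier results of these data known, so their counts are a description.

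**Figure D5:**
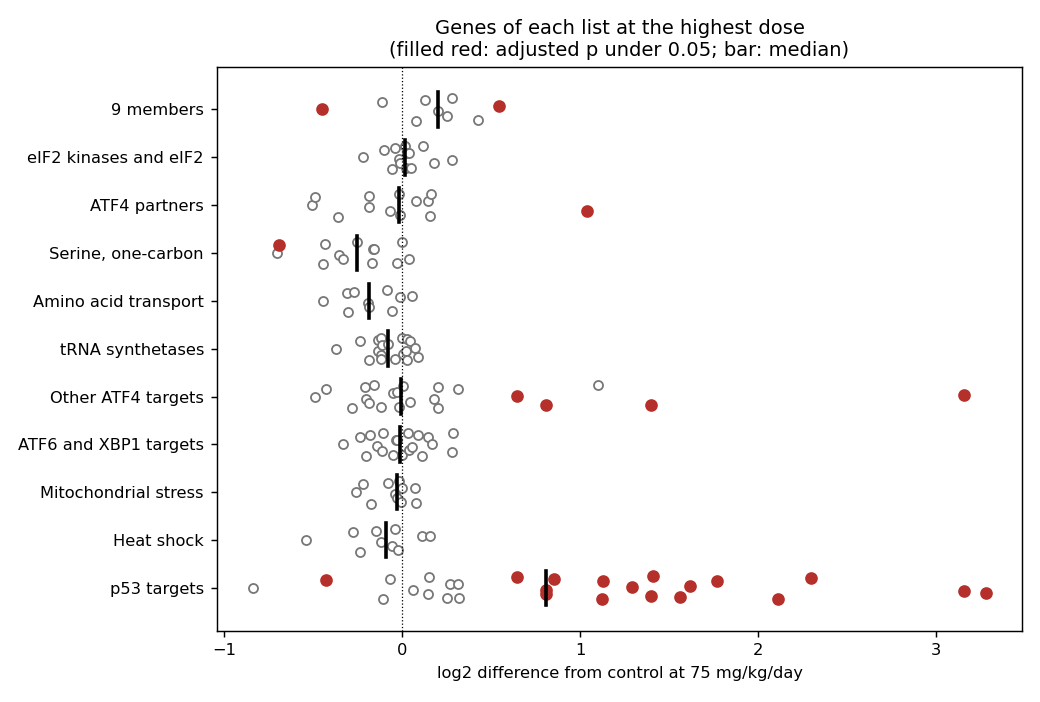
Log2 difference from control in BaP75 (horizontal axis) of every gene tested in each list, 1 point per gene. Filled red points passed an adjusted p of 0.05, and black bars are list medians: 0.20 for the 9 members, -0.26 for serine and one-carbon genes and 0.81 for p53 targets. Genes on more than 1 list, such as Gdf15, are drawn in each.

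Some markers of other cells differed between the groups as well, beside 1.51% of all genes called lower in BaP75. Over 6 B cell markers the mean log2 ratio was 0.51 to 0.98 in controls and 0.17 to 0.61 in BaP75, with 2 of 6 called lower. Over 6 NK cell markers it was 0.75 to 1.58 and 0.54 to 1.00, with 1 of 6 called lower, and over 6 fibroblast markers -0.51 to -0.24 and -1.27 to -0.36, with 1 of 6 called lower, and all genes of these 3 lists passed the filter on dim probes. Over 5 smooth muscle markers it was 0.85 to 2.01 in controls and 0.65 to 1.30 in BaP75, with 1 of 5 called lower, and over 6 endothelial markers 1 of 6 was called lower while the median difference was 0.18. The median differences over 7 cardiac muscle and 5 adipose markers were -1.34 and -1.08 with 0 called by limma, and the ranges of both groups overlapped. Over 7 skeletal muscle markers, control 5 stood at 5.77 and the other 18 mice reached at most 0.97. Without control 5, Ppp1r15a differed by 0.57 (adjusted p = 0.018) and Trib3 by -0.40 (adjusted p = 0.042) in BaP75. The part of these markers in the differences of Ppp1r15a and Trib3 was not tested. In the reference channel, the differences of Ppp1r15a and Trib3 were 0.12 ± 0.08 and -0.04 ± 0.07 in BaP75.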

How the data were processed

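The 9 genes and all lists were chosen with earlier results of these data known. The deposited intensities are those Feature Extraction 10.7.3.1 read from each scan, per the file headers, and the median intensity of each spot and its background was used. The authors also deposited a table of log2 ratios, which served as an alternative. It matched the ratios of the median intensities after loess without background subtraction (r of 0.995 to 0.998 per array). Its column medians were -0.053 to -0.033, and how it was centred was not stated. Background was corrected with normexp (offset 50, which compresses folds of dim spots) and arrays were normalized by loess in limma 3.58.1 under R 4.3.3. Cy5 was lung on all arrays, per the labels, with no dye swap. Of 41174 probes, 23374 (56.77%) were named by accession through RefSeq GRCm38.p6. Probes well above background on at least 4 arrays were kept, the brightest per gene, leaving 19315 genes. No spot was saturated (0 on each array). All 19 arrays were fitted with a mean per group, or with dose as a number (lmFit, eBayes), and p was adjusted by Benjamini-Hochberg over all genes with a threshold of 0.05. The number of arrays limits the precision. The fit was tested on simulated data.

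Genes were named by rule: all 9 members, up to 4 rises and 4 falls per list among genes past the threshold at any dose, and the 3 genes with the highest r to each member. Other list genes were chosen after their values were seen. The design names 5 mice for each group; of BaP50, 4 arrays were used. Pair p-values are two-sided, from 100000 permutations. Alternatives changed the background correction, the normalization, the filter, the probe, the slide or scan day as a block, array weights and the arrays used.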

Additional observations from a re-analysis of the deposited data

Results flagged for a closer look

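Of the 36 combinations of gene and group looked at, 4 held a mouse far from the others of its group by Dixon's criterion, which chance alone meets in about 1 group in 20. Ppp1r15a in mouse 16 in BaP75 was at 0.23, above the other 4 mice of that dose. Ddit3 in mouse 6 in BaP25 was at -1.13, above the others, and Ddit3 in mouse 17 in BaP75 was at -1.50, below the others. Asns in control 1 was at -2.75, below the other controls. Mice 6, 12 and 20, on the slide of control 1, also had the lowest Asns level of their groups (-2.79, -2.68 and -2.49).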

How the results depend on the processing

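No paired analysis by replicate number was possible because each mouse has a number of its own. The calls in the main text come from a fit without a block, and slide as a block was an alternative. Treated mice were also set beside the control of their slide. Each difference was recomputed under 36 alternatives, 19 of which left out 1 mouse. Some alternatives could not move a given difference. A quantile step on the average intensities after loess left every count of called genes as it was. The second Trib3 probe changed the level of Trib3 alone. Leaving out a mouse of another dosed group could change only the p. The rise of Ppp1r15a in BaP75 kept its call in 35 of 36 (0.44 to 1.08), and the fall of Trib3 in 23 of 36 in BaP50 (-0.63 to -0.26) and 29 of 36 in BaP75 (-0.58 to 0.16). In BaP50 0 of the 9 genes were called with an offset of 16, the processed signals, median centring, the lung channel alone, only the groups compared or the second Trib3 probe. In BaP75 1 was called with an offset of 16, median centring or the lung channel alone, 0 with only the groups compared and 4 with slide as a random block. In the trend 4 were called with the processed signals. Leaving out 1 mouse gave 0 to 0, 0 to 1 and 1 to 3 called genes at the 3 doses and 2 to 3 in the trend.

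Median centring moved the median of all genes to 0.15, 0.14 and 0.35 and turned the sign of Asns (0.16 and 0.12 in BaP25 and BaP50), Atf4 (0.23 and 0.26), Chac1 (0.01 in BaP50), Psat1 (0.23, 0.10 and 0.50 at the 3 doses) and Trib3 (0.05 in BaP25 and 0.16 in BaP75). The processed signals turned Atf4 (0.04 and 0.11 in BaP25 and BaP50) and Psat1 (0.14, 0.08 and 0.16), and the lung channel alone turned Atf4 (0.05 and 0.03) and Psat1 (0.11 in BaP25 and 0.06 in BaP75). Array weights turned Atf4 in BaP50 (0.01), and slide or scan day as a fixed block turned Psat1 in BaP25 (0.02 each). Leaving out 1 mouse turned Psat1 in BaP25 (-0.10 to 0.04), Atf4 in BaP25 (-0.09 to 0.03) and BaP50 (-0.06 to 0.05) and Ddit4 in BaP25 (-0.01 to 0.28) and BaP50 (-0.02 to 0.27). None of the turned values was called; after loess, Trib3 in BaP75 was the single one of these differences past the threshold. The cause was not tested.

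Over all genes, 10, 209 and 801 were called at the 3 doses, and 0, 9 and 529 with median centring (526 of the 529 higher). With slide as a fixed block 14, 406 and 1767 were called, with slide as a random block 41, 619 and 1850, with scan day 19, 337 and 1495, with the processed signals 36, 292 and 1451, and with only the groups compared 5, 51 and 414. Leaving out 1 mouse gave 3 to 13, 75 to 214 and 446 to 978. The counts fell by over 1.5 times without control 2 (5, 98 and 529), control 3 (5 in BaP25), control 4 (4 and 121 in BaP25 and BaP50), mouse 7 or 8 (3 each in BaP25), mouse 12, 13 or 15 (75 to 129 in BaP50) and mouse 16 or 18 (446 and 449 in BaP75), and without the 4 arrays with metrics out of range (3 and 95 in BaP25 and BaP50), so the shares of all genes called move with them. Of the calls in BaP75 63.7% were higher, against 99.4% with median centring and 79.1% with the lung channel alone. The low net signal of dim spots limits folds such as that of Trib3.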

Other observations

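Other stress lists were read beside the ATF4 genes, in BaP75, where 2.64% of all genes were called higher and 1.51% lower. Among 21 immediate early genes 2 rose, Ccn1, a matrix signalling protein, by 0.91 ± 0.22 (limma adjusted p = 0.023) and Ier5 by 0.81 ± 0.11 (adjusted p = 0.00012), and Klf2, an endothelial transcription factor, fell by 0.53 ± 0.12 (adjusted p = 0.013). Among 13 hypoxia targets Pfkfb3, which drives glycolysis, rose by 0.58 ± 0.16 (adjusted p = 0.046), and Egln3, an oxygen-sensing hydroxylase, fell by 0.82 ± 0.21 (adjusted p = 0.035). Both hypoxia calls were lost with median centring, with the lung channel alone or without the filter on dim probes. Of 10 glucocorticoid targets and 10 heat shock genes 0 were called, with medians of -0.03 and -0.09, and such counts are near the background at these shares.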
